A study of Saccharomyces cerevisiae with 9 samples.

Results

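The comparison described here is a sudden heat shock against no treatment in yeast, and it takes 6 of the 9 libraries of the series, 3 after heat shock and 3 control, chosen by their treatment label. All samples came from BY4742, a haploid laboratory strain of Saccharomyces cerevisiae of mating type alpha with the auxotrophic alleles his3Δ1, leu2Δ0, lys2Δ0 and ura3Δ0. Both groups were grown in YPD for 48 h at 25 °C with occasional gentle shaking, so that the cells were in stationary phase before any treatment. The heat-shocked cells were brought to 50 °C at 50 °C per min, kept there for 30 min and returned quickly to 25 °C, whereas the control cells were not heated. Each of 3 separate cultures, grown from a single colony of this strain, gave a heat-shocked and a control sample. The main fit leaves this pairing out, so that its p-values rest on the spread within the treatment groups, estimated over all 9 libraries. A fit with the culture as a block is given as an alternative. Reads from poly(A)+ RNA were counted on 7126 annotated features, of which 6847 reached a mean normalised count of 10 across all 9 libraries and entered the test. A normalised count is the number of reads on a feature divided by a factor for the depth of the library. Counted reads were 23543523 to 24341005 per library after heat shock and 26859792 to 27233289 in the control. In bulk RNA, a change of level per cell and a change in the kind of cells that gave RNA cannot be told apart.

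Yeast cells answer a rise in temperature with 2 main transcription programmes. Hsf1 drives the genes of molecular chaperones, which hold or refold damaged proteins, and Msn2 and Msn4 drive a general stress response that includes trehalose and glycogen metabolism, antioxidant enzymes and small stress proteins. Ribosomal protein genes and ribosome assembly factors usually fall during mild heat stress in growing cells. Stationary phase cells already express much of the general stress programme and have slowed ribosome production. Transfer RNAs, spliceosomal RNAs and small nucleolar RNAs are made without a stable poly(A) tail, and a selection on oligo(dT) beads is expected to keep few of them. In the nucleus, the TRAMP complex adds short tails to faulty forms of such RNAs before the exosome degrades them.

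LYS2, LEU2 and URA3, which the strain lacks, had 0 reads in all 6 libraries, which allows up to 3 reads in each. The pattern of mating type genes did not match one mating type. STE3, the a-factor receptor of alpha cells, had 5359, 5802 and 5909 normalised reads after heat shock, against 4424, 3376 and 3700.3 in the control, while STE2, the alpha-factor receptor of a cells, had 2229.6, 2057 and 2428 normalised reads after heat shock, against 1550.3, 999 and 1525 in the control. Both receptors were thus read in every library, and why a-specific genes were read in an alpha strain was not tested. Of the 10 mating type markers, 7 rose and 0 fell after heat shock (also 0 by edgeR and DESeq2 and at an unadjusted p under 0.05, and 1 with total count scaling), where 24.1% of all nuclear protein-coding genes rose.

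Heat shock replicate 2 stood apart from the other 2 heat-shocked libraries before any comparison with the control. Of 4674 features with a mean of at least 500 normalised reads after heat shock, 29 were at most 0.5 times as high in replicate 2 as in both others and 0 were at least 2 times as high. The corresponding numbers were 1 and 1 for replicate 1 and 0 and 0 for replicate 3. Of the 29 features, 7 were heat shock protein genes, and the CUP1 metallothionein locus and several neighbours of heat shock protein genes were also among them. Of the 39 heat shock protein genes examined, 25 were lowest in replicate 2 among the 3 heat-shocked libraries, as were 2161 of all 6847 tested features. Results that rest on these genes are therefore given with and without this library.

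With limma over all features and an adjusted p-value under 0.05 as the threshold, 3945 of the 6847 features differed between heat shock and control, which is 57.6%. Of these, 2050 were higher after heat shock (29.9% of the tested features) and 1895 were lower (27.7%). A log2 fold change of 1 is a doubling, and 833 features rose and 393 fell by at least that much. The median log2 fold change over all tested features was 0.04. The split between higher and lower features depended on the scaling, since dividing each library by its total count moved this median by −0.17 and gave 1525 higher and 2402 lower features. Scaling on protein-coding genes alone moved the median of those genes by 0.11. Among the lists described below, the median changed sign with at least 1 of these scalings for heat shock proteins, folding in the endoplasmic reticulum, ergosterol synthesis, ribosome assembly, respiratory chain, CCT chaperonin, exosome, ubiquitin conjugation, phosphate, nitrogen, sulfate and leucine genes and the AAD family. All changes below are relative to the size factors of the authors.

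The classes of features did not change alike. Among nuclear protein-coding genes, 1426 of 5912 rose (24.1%) and 1877 fell (31.7%), with a median log2 fold change of −0.07. With size factors taken from these genes alone, 1815 rose and 1559 fell, and with total count scaling 951 rose and 2375 fell. Their share of all counted reads was 98.9, 98.9 and 98.7% after heat shock, against 99.4, 99.3 and 99.4% in the control. The remaining classes took up the difference, and for each of nuclear tRNAs, spliceosomal RNAs, small nucleolar RNAs and mitochondrial open reading frames the 3 heat-shocked libraries lay above the 3 control libraries. An exact two-sided permutation test of 3 against 3 libraries gave p = 0.1 for each of these shares, the smallest value this design allows.

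**Figure D1:**
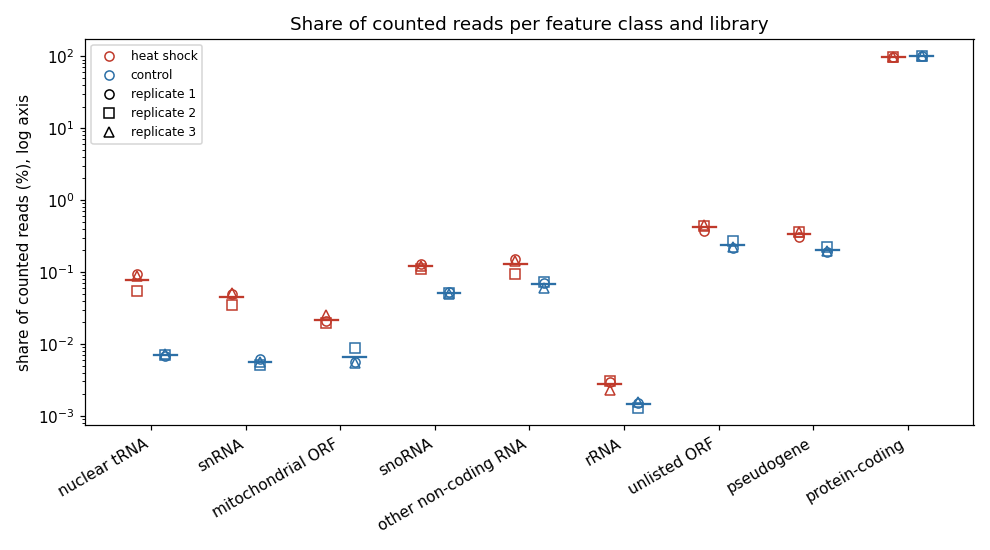
Share of the counted reads in percent, on a log axis, for each feature class in each library, with heat shock in red to the left of the control in blue and a line at each mean of 3 libraries. Nuclear tRNAs held 0.055% to 0.0938% after heat shock and 0.0068% to 0.00714% in the control.

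Nearly all transfer RNA genes that were tested rose in counted reads. In RNA selected on oligo(dT) beads, a change in their level and a change in their tails or capture cannot be told apart. The same limit holds below for the spliceosomal, small nucleolar, ribosomal and other non-coding RNAs and for the RNAs of the mitochondrial genome. Nuclear tRNAs took 0.0938, 0.055 and 0.0869% of the counted reads after heat shock, against 0.0068, 0.00704 and 0.00714% in the control. The means were 0.0785% ± 0.0207 after heat shock and 0.00699% ± 0.000175 in the control (SD, n = 3 each), a ratio of 11.2. Of the 275 nuclear tRNA genes listed, 217 passed the filter on low values, and 211 of these rose while 0 fell (also 0 by edgeR and DESeq2 and at an unadjusted p under 0.05), with a median log2 fold change of 3.21. Since control values were low, many genes passed only through the heated libraries, and the fit without a filter covered 270 genes, of which 247 rose and 0 fell, with a median of 2.81. Counted over all 275 genes, 255 had 3 heat-shocked values above all 3 control values and 0 had the reverse, while 34.8% of all tested features lay wholly above and 33.3% wholly below.

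The gain was uneven over the amino acids. Summed over all genes for glutamate with anticodon UUC, the 14 listed genes had 1969.9, 1119.6 and 2857 normalised reads after heat shock, against 29, 31.4 and 28.5 in the control. The 8 tyrosine genes had 1095, 614 and 1032 after heat shock and 14.1, 15 and 22.8 in the control. The 11 arginine genes with anticodon UCU had 939, 474 and 1223 after heat shock, against 22.6, 23.2 and 27.8 in the control. Among groups of 7 or more genes, these 3 gained most. The groups of this size that gained least were those of aspartate and glutamine, since the 16 aspartate genes summed to 848, 422 and 720.4 after heat shock, against 179, 174 and 169.8 in the control, and the 9 glutamine genes with anticodon UUG summed to 78.5, 35.4 and 71 after heat shock, against 12.7, 24.6 and 20 in the control. In all 5 groups the heated libraries lay above the control, by ratios of the mean sums of 66.9, 52.7, 35.8, 3.81 and 3.23 in the order given. The 5 groups were picked as extremes after their values were seen.

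The leading tRNA gene is shown because its sequence limits how its reads can be placed. The gene tE(UUC)K had 372, 323 and 696 normalised reads after heat shock, against 1.41, 4.1 and 5.71 in the control, which was at most 8 reads per control library before normalisation. It lies at chrXI:141018-141089 on the minus strand of the R64 assembly, taken as the one glutamate tRNA gene on chromosome XI in the annotation, with the anticodon in capitals.
tE(UUC)K: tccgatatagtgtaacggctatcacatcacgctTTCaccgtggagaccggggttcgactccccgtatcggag
The same 72 bases make up tE(UUC)P at chrXVI:210192-210263 on the minus strand, with 309.7, 207 and 464 after heat shock and 3.54, 3.41 and 2.14 in the control, and tE(UUC)C at chrIII:82462-82533, with 83, 33.6 and 72.8 after heat shock and 0.707, 0.683 and 1.43 in the control. In all, 6 of the 7 tE(UUC) genes that could be placed in this way were identical in sequence although their counts differed, so that reads within these genes cannot be assigned to one copy and values of single tRNA genes are uncertain. How the counting treated reads with several positions is not given in the sources used here.

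The spliceosomal RNAs rose together. They form the core of the particles that remove introns, and of the 6 listed, 5 passed the filter and all 5 of these were higher. Their summed share was 0.0494, 0.0343 and 0.0509% of the counted reads after heat shock, against 0.00621, 0.00516 and 0.00554% in the control. U2 RNA (LSR1) had 7723, 4817 and 8555 normalised reads after heat shock, against 846, 747 and 853 in the control, with a log2 fold change of 3.07 ± 0.20, adjusted p = 1.46e-07 in limma. U1 RNA (SNR19) had 2683, 2259 and 2495 normalised reads after heat shock, against 322, 201 and 203 in the control (3.38 ± 0.16, adjusted p = 1.17e-08). U4 (SNR14), U6 (SNR6) and the long form of U5 (SNR7-L) had log2 fold changes of 3.07, 2.59 and 1.94, from control levels under 6 normalised reads. In none of the 5 did the groups overlap.

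Small nucleolar RNAs guide 2 kinds of chemical change in ribosomal RNA, ribose methylation by the C/D box type and pseudouridylation by the H/ACA box type. Of the 76 listed, all passed the filter, 56 rose and 0 fell (1 lower at an unadjusted p under 0.05, and 0 by edgeR and DESeq2), with a median log2 fold change of 1.13. Those that rose were 33 of 45 C/D box RNAs, 21 of 29 H/ACA box RNAs and both copies of U3 (SNR17A and SNR17B), which is needed to cut the ribosomal RNA precursor. SNR17A had 391.8, 281 and 559.6 normalised reads after heat shock, against 36.8, 33.5 and 20 in the control, and SNR17B had 133, 122 and 394 after heat shock and 19.1, 28.7 and 27.1 in the control. The snoRNAs that overlap a protein-coding gene on the same strand rose in 10 of 11 cases with a median of 1.64, and the other 65 rose in 46 cases with a median of 0.99. Whether they lie wholly inside these genes was not examined. Since both are on the same strand, reads of such a gene and of the snoRNA that overlaps it cannot be told apart. The 20 that did not pass the threshold included SNR82, with 884, 874 and 496 normalised reads after heat shock, against 837, 695 and 698 in the control, and SNR8, with 100, 96.5 and 97.9 after heat shock and 122, 75.1 and 101 in the control. With total count scaling, with the culture as a block, and without heat shock replicate 1 or control replicate 2, 1 snoRNA fell.

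Among the snoRNAs the largest rise was that of snR190, a C/D box RNA that stands at chrX:139761-139950 on the minus strand of R64. It had 3026, 2811 and 2645 normalised reads after heat shock, against 212, 178 and 163 in the control, a log2 fold change of 3.94 ± 0.13, adjusted p = 2.87e-10. Its sequence is given because it shows the class, with the first TGATGA, the core of box C, and the last CTGA, box D, in capitals.
snR190: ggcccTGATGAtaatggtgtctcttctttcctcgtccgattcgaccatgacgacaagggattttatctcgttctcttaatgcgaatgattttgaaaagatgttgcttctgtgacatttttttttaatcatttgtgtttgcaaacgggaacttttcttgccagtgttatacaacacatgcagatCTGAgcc
No heated library stood apart for this RNA, with a mean of 2827 ± 191 normalised reads after heat shock (SD, n = 3).

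Among the 15 other non-coding RNAs, 14 were tested, 8 rose and 0 fell (also 0 by edgeR and DESeq2 and at an unadjusted p under 0.05). RPR1, the RNA of RNase P, which trims the front end of tRNA precursors, had 217, 128 and 196 normalised reads after heat shock, against 26.9, 10.9 and 18.5 in the control (3.25 ± 0.37, adjusted p = 9.77e-06). SCR1, the RNA of the signal recognition particle, had 1241, 819.6 and 1003 normalised reads after heat shock, against 350.1, 126 and 159.8 in the control, and TLC1, the telomerase template, had 1382, 1412 and 1534 normalised reads after heat shock, against 470.3, 567 and 546 in the control. NME1, the RNA of RNase MRP, which cuts the ribosomal RNA precursor, had 122, 94.7 and 91.6 normalised reads after heat shock, against 40.3, 39.6 and 44.9 in the control. These 4 RNAs had log2 fold changes of 3.25, 2.39, 1.45 and 1.28, each past the threshold. SRG1, a transcript that runs through the SER3 promoter, had 8815, 8074 and 5995 normalised reads after heat shock, against 9276, 7001 and 6358 in the control, and ICR1, from the FLO11 promoter, had 138, 124 and 157 after heat shock and 116, 129 and 109 in the control, and in both the groups overlapped. PWR1, which runs on the strand opposite to ICR1, had 84.8, 29.2 and 72.8 after heat shock and 4.24, 8.19 and 7.13 in the control and rose (2.98 ± 0.37, adjusted p = 2e-05).

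The mitochondrial genome encodes subunits of the respiratory chain, the ATP synthase and intron-encoded proteins. Of its 28 listed open reading frames, 18 passed the filter and all 18 rose in counted reads, with a median log2 fold change of 2.19. As for the tRNAs, a change in their level and a change in tails or capture cannot be told apart. Without the filter, 20 of the 26 with any read rose, with a median of 2.02. The 18 are not all separate loci, since many overlap on the same strand and their reads cannot be told apart. AI1, AI2, AI3, AI4, AI5_ALPHA and AI5_BETA overlap COX1, BI2 and BI4 overlap COB, Q0255 overlaps COX2 and SCEI overlaps the 21S ribosomal RNA. The share of the class was 0.0206, 0.0193 and 0.0252% of the counted reads after heat shock, against 0.00554, 0.00872 and 0.00541% in the control. COX1 had 391, 370.0 and 557 normalised reads after heat shock, against 94.8, 137 and 75.6 in the control, COB had 242, 227 and 347 after heat shock and 65.8, 47.8 and 32.8 in the control, OLI1 had 303, 298 and 208 after heat shock and 33.2, 84.7 and 43.5 in the control and COX3 had 312, 198 and 436 after heat shock and 24, 75.8 and 33.5 in the control. COX2, which led the class, had 119.6, 73.5 and 185 after heat shock and 0.707, 11.6 and 6.42 in the control, with a log2 fold change of 4.45 ± 0.56, adjusted p = 2.38e-05, which was 3.62 without control replicate 1 and 5.06 without control replicate 2. The 21S ribosomal RNA of the mitochondrion had 5285, 4908 and 4414 normalised reads after heat shock, against 2285, 3584 and 2832 in the control (0.77 ± 0.20, adjusted p = 0.00502). Of the 39 nuclear genes of the respiratory chain and ATP synthase, 5 rose and 13 fell. Their median was −0.09, which protein-coding scaling turned to 0.02. The share lower, 33.3%, was near the 31.7% of all protein-coding genes, and the share higher was 12.8%, against 24.1%. Of the 79 nuclear genes for mitochondrial ribosomal proteins, 5 rose and 42 fell, with a median of −0.45. Capture on oligo(dT) beads may differ between mitochondrial and nuclear RNAs, so that these counts do not compare their levels.

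The ribosomal DNA locus on chromosome XII gave mixed values from near-identical copies. Of 14 ribosomal RNA features, 8 had no read, and the 6 that were read were the 5S genes. RDN5-1 had 295, 435 and 268 normalised reads after heat shock, against 45.3, 47.8 and 50.7 in the control (2.74 ± 0.20, adjusted p = 3.01e-07), but RDN5-6, with the same sequence, had 60.7, 42.5 and 36.8 after heat shock and 43.8, 29.4 and 31.4 in the control, and RDN5-2 had 93.7, 39.8 and 67.4 after heat shock and 50.9, 41.7 and 55.6 in the control, with overlap of the groups for RDN5-2 to RDN5-6. The 2 sequence types are shown because they set which reads can be told apart, with the bases after the 117 shared ones in capitals.
RDN5-1, chrXII:459676-459796, plus strand: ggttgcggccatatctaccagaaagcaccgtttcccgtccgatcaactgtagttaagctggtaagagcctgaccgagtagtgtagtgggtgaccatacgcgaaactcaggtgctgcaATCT
RDN5-2, chrXII:468813-468931, plus strand: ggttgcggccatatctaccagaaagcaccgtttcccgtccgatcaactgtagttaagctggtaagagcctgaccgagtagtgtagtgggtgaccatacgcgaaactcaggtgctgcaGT
RDN5-2 is identical to RDN5-3, RDN5-4 and RDN5-5, so that a difference between RDN5-1 and its copies rests on reads that reach outside the gene or on the way in which repeats were counted, and it was not tested further. The open reading frame YLR154C-H, opposite to RDN5-2, had 386, 328 and 701 normalised reads after heat shock, against 19.8, 17.8 and 16.4 in the control and was the highest protein-coding gene (4.56 ± 0.25, adjusted p = 2.34e-08). The 3 further reading frames of this kind, YLR156C-A, YLR157C-C and YLR159C-A, rose with log2 fold changes of 2.45, 2.00 and 2.31. TAR1, opposite to the 25S ribosomal RNA, had 5183, 8003 and 8237 normalised reads after heat shock, against 276, 428 and 386 in the control (4.29 ± 0.19, adjusted p = 6.91e-09). Since the strand setting of the counting is not stated, reads of these genes and of the ribosomal RNA on the other strand cannot be told apart.

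Open reading frames that the R64 annotation does not list as genes, most of them formerly named dubious, leaned to higher values. Of 679 such features, 583 were tested, 319 rose and 14 fell, with a median log2 fold change of 0.87, and their share of reads was 0.37, 0.437 and 0.455% of the counted reads after heat shock, against 0.218, 0.271 and 0.221% in the control. Of the 666 with any read, 346 rose and 14 fell without the filter. The annotation used gives no positions for these frames, so that overlap with listed genes was not examined. With the strand setting not stated, their reads cannot be told apart from reads of any gene they overlap. YOL013W-A had 69.6, 47.8 and 44 normalised reads after heat shock, against 5.66, 2.05 and 2.85 in the control, and among those that fell YOR379C, the lowest of the class by log2 fold change, had 14.3, 12.4 and 14.4 normalised reads after heat shock, against 26.2, 26.6 and 32.8 in the control. Of 14 pseudogenes tested, 4 rose and 4 fell, with the cell wall gene CCW22 at 58797, 68073 and 72526 after heat shock and 28608, 34343 and 30581 in the control and the inactive regulator gene FLO8 of this strain background at 948, 928 and 854 after heat shock and 1521, 1538 and 1604 in the control.

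Of the 12 protein-coding genes with the strongest rise, 4 lie in repeats where reads can be shared. YLR154C-H and TAR1 are in the ribosomal DNA. YHR054C and RSC30 lie in the CUP1 array on chromosome VIII, and the 1065 bases of YHR054C (chrVIII:213185-214249) occur without a difference inside RSC30 (chrVIII:215183-217834), which encodes a subunit of the RSC chromatin remodeller. YHR054C had 147986, 12275 and 100807 normalised reads after heat shock, against 2617, 3329.8 and 3033 in the control and RSC30 had 139409, 12964 and 94279.5 after heat shock and 3888, 4493 and 4329 in the control. Their log2 fold changes were 4.25 ± 0.62, adjusted p = 8.06e-05 for YHR054C and 3.71 ± 0.59, adjusted p = 0.000158 for RSC30, and without heat shock replicate 2 they were 5.36 and 4.76, or 3.56 and 3.05 without replicate 1. The copper metallothionein genes of the same array, CUP1-1 and CUP1-2, which are identical, had 399529, 94594 and 226857 after heat shock and 156183, 126466 and 149098 in the control and 407992, 92844 and 229451 after heat shock and 159829, 125929 and 148519 in the control, did not pass the threshold and were also lowest in replicate 2 among the heated libraries.

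The other 8 of these 12 genes belong to several functions, and among them ASI3 alone was at most 0.5 times as high in heat shock replicate 2 as in each other heated library. NCE103, carbonic anhydrase, had 64021, 64672 and 37049 normalised reads after heat shock, against 16696, 12298 and 10008 in the control (2.07 ± 0.23, adjusted p = 7.39e-06). SPS2, a spore wall gene, had 212, 222 and 226 normalised reads after heat shock, against 32.5, 34.8 and 27.8 in the control (2.76 ± 0.20, adjusted p = 2.81e-07), and FRM2, a nitroreductase, had 409.7, 266 and 319.8 after heat shock and 27.6, 57.4 and 72.1 in the control (2.72 ± 0.29, adjusted p = 6.42e-06). NFG1, a negative regulator of filamentous growth, had 770.3, 728 and 645 after heat shock and 154, 117 and 121 in the control (2.45 ± 0.21, adjusted p = 1.02e-06). ASI3, part of a ubiquitin ligase of the inner nuclear membrane and the next gene downstream of the chaperone gene SIS1, had 19298, 3904 and 15468 normalised reads after heat shock, against 2225, 2073 and 1989.6 in the control (2.33 ± 0.40, adjusted p = 0.000303, or 3.04 without heat shock replicate 2). HXT14, a distant member of the hexose transporter family, had 244, 136 and 164 after heat shock and 32.5, 50.5 and 43.5 in the control, and the uncharacterised YDR524W-C and YDR042C had 3294, 4847 and 6640.1 after heat shock and 641, 1291 and 904 in the control and 1457, 827 and 1349 after heat shock and 245, 286 and 259.7 in the control. The groups did not overlap in any of the 12 genes, a condition of the rule by which they were chosen.

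The 12 strongest falls belonged to genes of differing functions. SIP18, a hydrophilin linked to survival of drying, had 368, 692 and 735 normalised reads after heat shock, against 3809.9, 6085 and 5534 in the control, a log2 fold change of −3.14 ± 0.25, adjusted p = 6.48e-07. SPG4, a gene required for survival in stationary phase, had 518, 1045 and 960.3 normalised reads after heat shock, against 2176, 4348 and 3535 in the control (adjusted p = 3.79e-05). MLS1, malate synthase of the glyoxylate cycle, had 843, 1243 and 1144 normalised reads after heat shock, against 3449, 5729 and 4795 in the control (−2.10 ± 0.18, adjusted p = 1.14e-06). PAH1, the phosphatidate phosphatase that directs lipid to storage fat, had 585, 554 and 679 normalised reads after heat shock, against 2685, 2966 and 2653 in the control (−2.19 ± 0.12, adjusted p = 3.35e-08). ECM13, of unknown function, had 788, 818 and 697 after heat shock and 3291, 4181 and 4016 in the control (−2.31 ± 0.13, adjusted p = 2.34e-08). Regulators in the group were ZDS1, which controls a protein phosphatase, at 263, 243 and 329.7 after heat shock and 1175, 1206 and 1154 in the control, the zinc finger genes STP4 at 4133, 4734 and 7816 after heat shock and 20140.0, 25582 and 22539 in the control and COM2 at 3378, 1149 and 2426 after heat shock and 9709.7, 8356 and 8700.4 in the control, and CIP1, an inhibitor of the cell cycle kinase, at 1166, 530.2 and 908 after heat shock and 5438, 2518 and 2599.6 in the control. TDA6, UGX2 and YLR297W, with log2 fold changes of −2.11, −2.05 and −2.02, complete the 12.

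**Figure D2:**
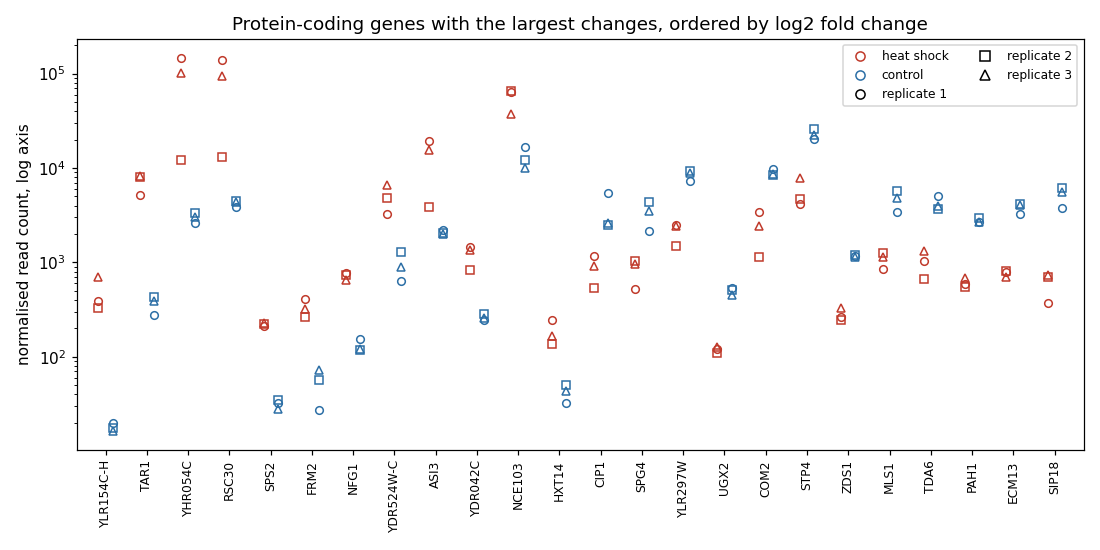
Normalised read counts on a log axis for the 12 protein-coding genes with the largest rise and the 12 with the largest fall, heat shock in red to the left of the control in blue, with 1 symbol per replicate. Heat shock replicate 2, the square, lies at 12275 for YHR054C and 12964 for RSC30, far below the other heated libraries.

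Heat shock protein genes were divided in direction. Of the 39 examined, 6 rose (BTN2, HCH1, HSP10, HSP31, SSB2 and AHA1) and 11 fell, with a median log2 fold change of 0.10. The shares, 15.4% higher and 28.2% lower, were both under the 24.1% and 31.7% of all protein-coding genes. BTN2, which gathers misfolded proteins at defined sites, had 93222, 21863 and 69116 normalised reads after heat shock, against 16018, 15426 and 13245 in the control (1.81 ± 0.39, adjusted p = 0.00138). HSP82, the inducible Hsp90, had 95421, 26046 and 62315 normalised reads after heat shock, against 39581, 37721 and 35457 in the control, and SSA1, a cytosolic Hsp70, had 85980.4, 24622 and 58069 after heat shock and 36297, 28907 and 28458 in the control, and in both the lowest heated library lay below the control. SSA4, a strongly heat-inducible cytosolic Hsp70, had 84716, 32617 and 59079.6 after heat shock and 56247, 39166 and 44619.9 in the control, and HSP104, which pulls proteins out of aggregates, had 58579, 22957 and 40982 after heat shock and 49075, 46108 and 43486 in the control, again with overlap. None of these last 4 passed the threshold. The genes that fell were led by small and membrane heat shock proteins. HSP26 had 6979.8, 7958 and 7778 normalised reads after heat shock, against 17867, 20453 and 18417 in the control (−1.32 ± 0.16, adjusted p = 1.56e-05), HSP12 had 16995, 18786 and 13660.1 after heat shock and 29833, 34666 and 31269.7 in the control (−0.96 ± 0.19, adjusted p = 0.000808), HSP30 had 6062, 2691 and 4086 after heat shock and 13927, 8119.5 and 6762 in the control (−1.17 ± 0.30, adjusted p = 0.00437), and SSA3, an Hsp70 of stationary phase, had 6400.5, 7158 and 8394 after heat shock and 12660.3, 17222 and 17929 in the control (−1.12 ± 0.17, adjusted p = 9.22e-05). Hsp90 partners went in both directions, since HCH1 and AHA1, named above among the genes that rose, are also Hsp90 cochaperones. Among those that fell were CDC37 at 1524, 1398 and 1383 after heat shock and 3115, 2729 and 2662 in the control, SBA1 at 4281, 4581 and 3793 after heat shock and 8188, 7488 and 7334 in the control and STI1 at 11779, 5702 and 10115 after heat shock and 16841, 14388 and 13969 in the control.

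Heat shock replicate 2 decided much of this count. Without it, 18 of the 39 genes rose and 10 fell, and the median was 0.35. HSP82, SSA1 and SSA2 then rose, with log2 fold changes of 1.04, 1.19 and 1.20, as did CUR1, MDJ1 and HSC82 with 1.35, 0.73 and 1.08, and SSA4 and SIS1 with 0.62 and 0.52, whereas HSP104 and HSP42 did not pass the threshold at 0.09 and 0.13. BTN2 had a log2 fold change of 2.43 without this library. SSB2 no longer passed the threshold without this library, without heat shock replicate 3 or without control replicate 1 or 2. AHA1 did not pass without heat shock replicate 1 or 3 or control replicate 2 or 3, and HCH1 did not without heat shock replicate 1. With the culture as a block, 9 of the 39 genes rose, SSA2 and HSC82 among them, and 12 fell. Total count scaling gave 3 higher and 15 lower with a median of −0.07, DESeq2 gave 14 higher and 12 lower, and a fit of only these 6 libraries with the culture as a block gave 13 higher and 15 lower.

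**Figure D3:**
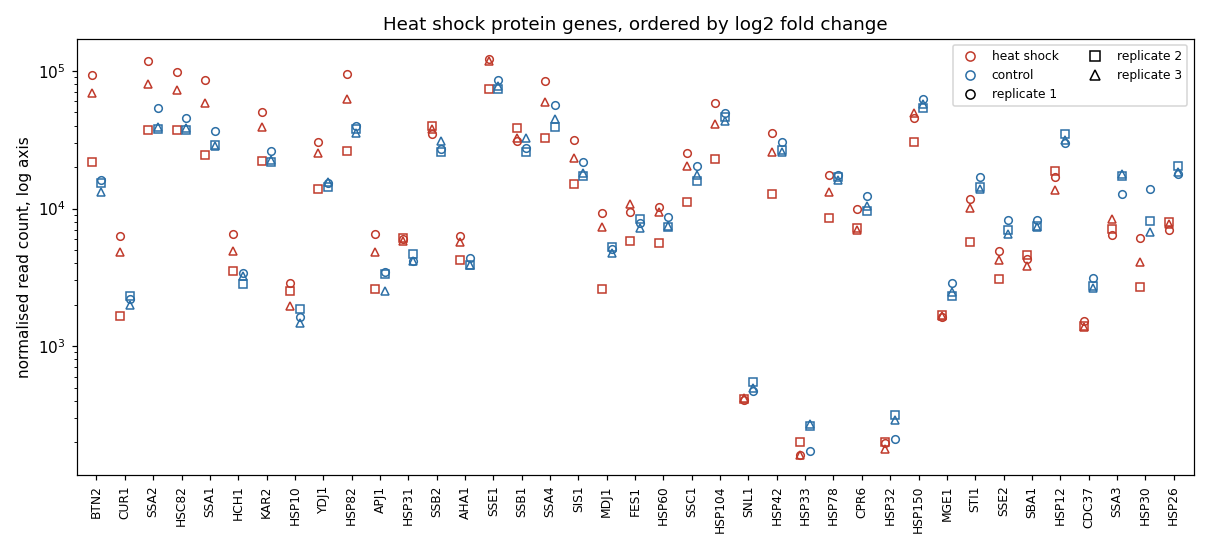
Normalised read counts on a log axis for 39 heat shock protein genes in order of their log2 fold change, heat shock in red to the left of the control in blue, with 1 symbol per replicate. Replicate 2, the square, is the lowest of the 3 heated libraries in 25 genes, and in 2161 of all 6847 tested features.

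Of 20 regulators of heat and stress responses, 2 rose and 8 fell. These are 10% and 40%, against 24.1% and 31.7% of all protein-coding genes. MSN4 had 2965, 3245 and 3289 normalised reads after heat shock, against 8739, 10160.0 and 8421 in the control (−1.52 ± 0.12, adjusted p = 7.46e-07), while its partner MSN2 had 4948, 5269 and 4837 normalised reads after heat shock, against 3806, 4375 and 4022 in the control (0.30 ± 0.13, adjusted p = 0.0599). HSF1 had 1261, 1136 and 1267 normalised reads after heat shock, against 2744, 2442 and 2368 in the control (−1.04 ± 0.12, adjusted p = 1.09e-05), and CAD1, a relative of the oxidative stress factor Yap1, had 697, 578 and 689 after heat shock and 1759, 1344 and 1401 in the control (−1.19 ± 0.14, adjusted p = 1.68e-05). HOT1, a factor for high osmolarity, had 1109, 1020.5 and 1241 after heat shock and 2128, 2049 and 2144 in the control, and YAP1 itself had 4832, 4501 and 3995 after heat shock and 6391, 6468 and 6151 in the control, and both fell. PDR3, a drug resistance factor, and SKN7 rose with log2 fold changes of 0.47 and 0.29, and neither passed the threshold with total count scaling. SKN7 also lost the call when any control library or heat shock replicate 1 or 3 was left out, and without heat shock replicate 3 PDR3 and YAP1 did not pass and 5 of the 20 genes fell.

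In each of the lists of reserve carbohydrates and of the general stress programme, more genes fell than rose. Over all protein-coding genes, 31.7% fell and 24.1% rose. The shares lower were 57.1% for trehalose and glycogen, 56.5% for hydrophilin and stationary phase genes and 50% for glycerol and osmotic stress. For oxidative stress defence the share lower was 36.1%, near that of all protein-coding genes. In trehalose and glycogen metabolism 12 of 21 genes fell and 3 rose, with a median of −0.49. GIP2, a targeting subunit of a phosphatase for glycogen synthase, had 1136, 936 and 1034 normalised reads after heat shock, against 2762, 3455 and 3148 in the control (−1.59 ± 0.13, adjusted p = 6.83e-07), the glycogen primer GLG1 had 345, 375 and 363 after heat shock and 1170.5, 934 and 837 in the control, and the acid trehalase ATH1 had 966, 895 and 1069.8 after heat shock and 2581, 2438 and 2227 in the control. Of 23 hydrophilin and stationary phase genes, 13 fell and 6 rose, with a median of −0.63, SIP18, SPG4 and SPG1 at the low end and HOR7 at the high end with 106111, 98538 and 70046 normalised reads after heat shock, against 43615, 48492 and 38560.4 in the control. Of 36 genes of oxidative stress defence, 13 fell, among them the cytosolic catalase CTT1 with 1929, 2025 and 1867 normalised reads after heat shock, against 3611, 4566 and 4693 in the control, and 6 rose, among them the peroxisomal catalase CTA1 with 711, 373 and 598 after heat shock and 256, 346 and 321 in the control. In glycerol and osmotic stress 9 of 18 fell and 2 rose.

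In glycolysis, the glyoxylate cycle and the citrate cycle more genes fell than rose. The shares lower were 50, 61.9 and 53.8% in that order, against 31.7% of all protein-coding genes. No glycolysis gene of 22 rose and 11 fell, with a median of −0.35. None rose by edgeR or DESeq2 or at an unadjusted p under 0.05 either (0 of 22 in each). The enolase genes ENO1 and ENO2 had 13884, 15691 and 14929 normalised reads after heat shock, against 38950.5, 38306 and 40213 in the control and 7401, 10381 and 10018 after heat shock and 18866, 20401 and 22333 in the control. In gluconeogenesis and the glyoxylate cycle, 0 of 21 genes rose and 13 fell, with a median of −0.54, while 1 rose without heat shock replicate 1 or 2 and 2 rose in the fit of these 6 libraries with the culture as a block. ICL1, isocitrate lyase, had 2093, 3064 and 2761 normalised reads after heat shock, against 5149, 8822 and 7535 in the control (−1.42 ± 0.19, adjusted p = 4e-05), and CAT8, an activator of these genes, had 303, 349.6 and 333 after heat shock and 706, 938 and 713 in the control. In the citrate cycle 3 of 26 rose and 14 fell, with KGD1, of the 2-oxoglutarate dehydrogenase, at 3161, 3240.2 and 3472 after heat shock and 7677, 8824 and 7066 in the control. Of 20 genes of fermentation, 5 rose and 6 fell, and these 25% and 30% were near the 24.1% and 31.7% of all protein-coding genes. Hexose transporters divided by level, with 10 of 19 higher and 6 lower. HXT2 and HXT5, of high and moderate affinity, fell with 12422, 18951 and 18478 normalised reads after heat shock, against 26343, 34134 and 33580.3 in the control and 3389.9, 4469.6 and 4553 after heat shock and 5933, 9149 and 9209 in the control, while HXT14, HXT17 and HXT13 rose, with control values of at most 50.5 normalised reads. The summed share of the family was 0.437, 0.54 and 0.551% of the counted reads after heat shock, against 0.742, 0.784 and 0.728% in the control.

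Ribosomal protein genes of the cytosol rose together. Of 139, 106 rose and 1 fell, with a median log2 fold change of 0.60, and their share was 5.99, 8.47 and 6.49% of the counted reads after heat shock, against 4.8, 4.99 and 5.39% in the control. The groups did not overlap. RPL18B had 4599, 5674 and 5108 normalised reads after heat shock, against 1575, 1398 and 1539 in the control (1.77 ± 0.16, adjusted p = 1.31e-06), RPS27B had 9952, 14652 and 12213 after heat shock and 3364, 4564 and 4278 in the control and RPP2A, of the ribosomal stalk, had 19277, 23693 and 37205 after heat shock and 7944, 9959 and 10788 in the control. RPL8A was the gene that fell, with 2835, 3234 and 3036 normalised reads after heat shock, against 4667, 4292 and 4901 in the control (−0.61 ± 0.11, adjusted p = 0.000465). With total count scaling 79 rose and 2 fell, and without heat shock replicate 2, 85 rose and 1 fell. Many of these genes are near-identical pairs, between which shared reads cannot be assigned.

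Ribosome assembly factors moved little by comparison, with 25 of 122 higher, 12 lower and a median of 0.05, and 10 higher and 29 lower with total count scaling. The main fit's shares were 20.5% higher and 9.84% lower, against 24.1% and 31.7% of all protein-coding genes. When 1 library was left out, 16 to 32 rose and 5 to 26 fell, the extremes being without control replicate 2 and without heat ramp replicate 2 for the higher genes, and without control replicate 1 or heat shock replicate 2 and without heat ramp replicate 2 for the lower. TIF6, which keeps the large subunit apart from the small one, had 20071, 24119.7 and 25668 normalised reads after heat shock, against 9999, 9859.5 and 11435 in the control (1.15 ± 0.14, adjusted p = 1.4e-05). Among 46 translation factors 15 rose and 6 fell, and 9 rose without control replicate 2. HYP2, which encodes eIF5A, had 46671, 51520.2 and 45369 normalised reads after heat shock, against 16777, 18159 and 18369.6 in the control (1.43 ± 0.17, adjusted p = 1.46e-05), whereas TIF4632, one of the eIF4G genes, had 719, 689 and 688 normalised reads after heat shock, against 2527, 2139 and 2195 in the control (−1.71 ± 0.13, adjusted p = 4.54e-07). Of 36 genes for RNA polymerases I and III and their factors 6 rose and 14 fell. TFC3 and TFC1, of the factor that binds tRNA genes, were among those that fell, with 793, 665 and 749 after heat shock and 1622, 1589 and 1567 in the control and 429, 337 and 382 after heat shock and 779, 773 and 773 in the control. Of 43 for RNA polymerase II and mediator 6 rose and 18 fell.

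Among lists of RNA processing and protein removal, splicing, mRNA decay and autophagy had the largest shares of lower genes, at 47.3, 43.6 and 59.4% against 31.7% of all protein-coding genes, whereas polyadenylation, exosome, ubiquitin conjugation and CCT chaperonin genes, at 31.8, 21.7, 27.6 and 26.7%, were near or under that share. Of 55 splicing genes 8 rose and 26 fell, with a median of −0.37, and CLF1 and PRP3, both of the spliceosome, had 1077, 909 and 1132 normalised reads after heat shock, against 2724, 2494 and 2719 in the control and 1089.8, 909.8 and 1034 after heat shock and 2702, 2480.2 and 2427 in the control. This direction was opposite to that of the counts of the spliceosomal RNAs, for which level and capture cannot be told apart. Of 39 genes of mRNA decay and stress granules 6 rose and 17 fell, with the helicase DHH1 at 4219, 3853 and 4477 normalised reads after heat shock, against 1783, 1595 and 1456 in the control and the decapping enzyme DCP2 at 1734, 1913 and 1922 after heat shock and 4149, 4177 and 4293 in the control. In polyadenylation 4 of 22 rose and 7 fell, and in the exosome, TRAMP and Nrd1 complexes 3 of 23 rose and 5 fell. TRF5, a poly(A) polymerase of TRAMP, fell with 1321, 1117 and 1355 normalised reads after heat shock, against 1821, 2026 and 2139 in the control (−0.66 ± 0.19, adjusted p = 0.00995). Proteasome genes gave 6 higher and 15 lower of 40, one of the 6 being their activator RPN4, with 17210.2, 10414 and 15776 normalised reads after heat shock, against 7216, 7883 and 6821 in the control (0.96 ± 0.17, adjusted p = 0.000444). Autophagy gave 4 higher and 19 lower of 32, led downwards by ATG17 with 162, 183 and 218 after heat shock and 598, 557 and 601 in the control. Of 29 ubiquitin conjugation genes 7 rose and 8 fell, and of 15 for the CCT chaperonin and prefoldin 1 rose and 4 fell. Histone genes gave 1 higher and 6 lower of 11, and cyclins and their inhibitors 9 and 13 of 33 (5 higher without heat shock replicate 2), with the inhibitor SIC1 at 915, 943 and 937 after heat shock and 2507, 2223 and 2215 in the control.

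Lists of membranes and the wall were mixed, where 24.1% of all protein-coding genes rose and 31.7% fell. Genes of folding in the endoplasmic reticulum, at 27.8% higher, were near the share that rose, and at 22.2% lower under the share that fell. Of 29 ergosterol genes 12 rose and 2 fell, with the sterol oxidase ERG25 at 18501, 22461 and 22333 normalised reads after heat shock, against 5851, 6954 and 7576 in the control (1.64 ± 0.14, adjusted p = 1.02e-06). The fatty acid elongase ELO3 had 6838, 8459 and 8888 after heat shock and 2569, 2514 and 2964 in the control (1.58 ± 0.13, adjusted p = 9.49e-07), within a lipid list of 27 genes in which 5 rose and 10 fell. Of 58 cell wall genes 22 rose and 9 fell, with the glucan-modifying GAS2 at 2809, 1959 and 2523 normalised reads after heat shock, against 714, 595 and 777 in the control (1.80 ± 0.16, adjusted p = 1.14e-06) and the chitinase CTS1 at 106169, 113939 and 136944 after heat shock and 49647, 31412 and 40544 in the control. PKC1, the kinase of the cell integrity pathway, fell with 1189, 1117 and 1196 after heat shock and 3166, 2772 and 3058 in the control. Of 29 genes of vacuolar proteases and proton pumps 12 rose and 6 fell, and of 36 of folding in the endoplasmic reticulum 10 rose and 8 fell, with a median of 0.10, or −0.07 with total count scaling. Of the folding genes, 4 genes fell without control replicate 1 and 5 without control replicate 3 or heat shock replicate 1 or 3. Total count scaling also gave 9 higher and 5 lower ergosterol genes and 8 higher and 10 lower vacuolar genes.

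Genes of meiosis and sporulation, which haploid cells do not need, rose in 31 of 59 cases and fell in 8, with a median of 0.59. Their summed share of the counted reads overlapped between the groups. It was 0.130, 0.142 and 0.148% after heat shock, against 0.122, 0.146 and 0.142% in the control. The 3 genes of this list with the highest log2 fold changes, SPS2, REC114 and SPO19, had at most 71.7 normalised reads in any control library. REC114, of meiotic recombination, had 308, 196 and 195 normalised reads after heat shock, against 58.7, 71.7 and 47.8 in the control, and SPO19 had 197, 215 and 228 after heat shock and 46.7, 64.2 and 70.6 in the control. Families near the chromosome ends differed. The COS family gave 10 higher and 1 lower of 12, and the seripauperins 5 higher (26.3%, near the 24.1% of all protein-coding genes) and 0 lower of 19 tested and 24 listed, while 0 of 5 AAD genes rose and 1 fell. Of the 92 Ty Gag and Gag-Pol genes, 69 were tested, 0 rose (also by edgeR and DESeq2 and at an unadjusted p under 0.05) and 50 fell, with a median of −0.53, and their share was 0.664, 0.784 and 0.75% of the counted reads after heat shock, against 1.14, 1.24 and 1.15% in the control. As Ty copies are near-identical, the sum is more certain than the genes.

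**Figure D4:**
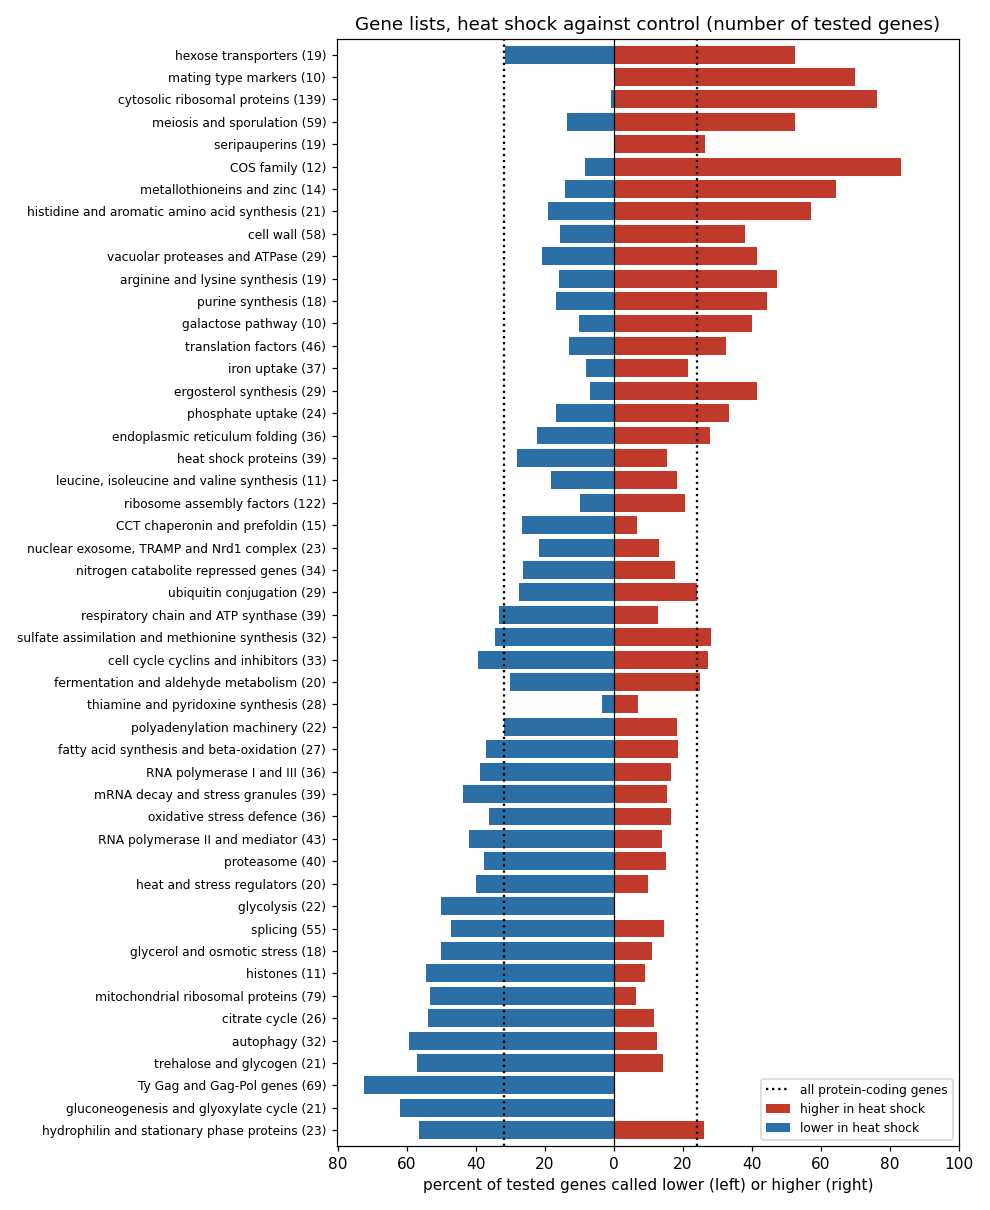
Percent of tested genes of each list that were higher after heat shock, to the right in red, or lower, to the left in blue, with the number of genes in parentheses, in order of the median log2 fold change. Dotted lines mark the 24.1% higher and 31.7% lower over all protein-coding genes.

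Biosynthetic lists were mixed, where 24.1% of all protein-coding genes rose and 31.7% fell. Sulfate assimilation with methionine synthesis, at 28.1% higher and 34.4% lower, was near these shares. Iron, nitrogen and leucine genes, at 21.6, 17.6 and 18.2% higher, were near or under the share that rose. Of 21 histidine and aromatic amino acid genes 12 rose and 4 fell, 4 rose and 5 fell with total count scaling, and 6 rose without heat shock replicate 2. Arginine and lysine synthesis gave 9 higher and 3 lower of 19, leucine, isoleucine and valine synthesis 2 and 2 of 11, and sulfate assimilation with methionine synthesis 9 and 11 of 32. Purine synthesis gave 8 higher and 3 lower of 18, with ADE17 at 7287, 9527 and 8254 normalised reads after heat shock, against 3900.4, 2629 and 3868 in the control and its paralog ADE16 at 4341, 4046 and 4261 after heat shock and 7035, 6067 and 6492 in the control, so that the pair moved in opposite directions. Metallothionein and zinc genes gave 9 higher and 2 lower of 14, and iron uptake genes 8 and 3 of 37, or 6 and 6 with total count scaling. Phosphate uptake gave 8 and 4 of 24, with 4 higher without control replicate 1 and 5 without heat shock replicate 2 or 3, nitrogen catabolite repressed genes 6 and 9 of 34, galactose genes 4 and 1 of 10, and thiamine and pyridoxine synthesis 2 and 1 of 28.

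The direction of change followed gene length more than GC content or the level in the control. Among the 1480 shortest protein-coding genes, of 78 to 720 bases, 33.3% rose and 23.2% fell, with a median log2 fold change of 0.13. Among the 1478 longest, of 1888 to 14733 bases, 10.2% rose and 48.3% fell, with a median of −0.32. The Spearman correlation of length with the log2 fold change across 5912 genes was −0.256, and −0.240 without the cytosolic ribosomal protein genes, where genes are not independent replicates. For GC content it was −0.0266 and for the level in the control −0.0780. The part of gene length in the direction of the lists was not tested. For RNA integrity, the paper gives only an upper bound over all samples, and its part in the length trend was not tested either.

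**Figure D5:**
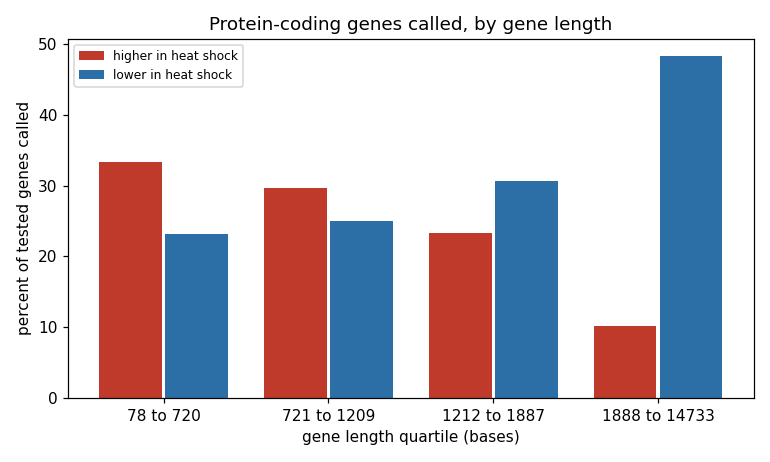
Percent of protein-coding genes called higher, in red, or lower, in blue, after heat shock in 4 classes of gene length in bases with near-equal numbers of genes. The share higher was 33.3% for the shortest and 10.2% for the longest genes, and the share lower 23.2% and 48.3%.

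Genes with an intron were higher mainly where they encode ribosomal proteins. Of 90 intron-containing ribosomal protein genes 72 rose and 0 fell, and of 49 without an intron 34 rose and 1 fell, with medians of 0.68 and 0.56. Of the other 178 genes with an intron 53 rose and 53 fell. Promoters, taken as the 300 bases before each start codon, were searched on both strands for 4 motifs. AGGGG, the element bound by Msn2 and Msn4, was present in 22.4% of 5912 promoters, and of these 1324 genes 21.5% rose and 36.3% fell. A strict form of the element bound by Hsf1, with GAA, TTC and GAA or TTC, GAA and TTC each set 2 bases apart, was in 0.88% of promoters, where 15 of 52 genes rose and 10 fell, and it was in 11 of the 39 heat shock protein genes. TATAAA was in 48.0% of promoters, with 24.8% higher and 30.6% lower, and GCGATGAG, common before ribosome assembly genes, was in 4.11%, with 16.0% higher and 22.6% lower. For TATAAA these shares were near the 24.1% and 31.7% of all protein-coding genes, and no match is evidence of binding.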

How the data were processed

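RNA from heat-shocked and control cultures of BY4742 was enriched on oligo(dT) beads, made into ScriptSeq libraries and sequenced as single reads of 50 bases. According to the methods of the study, the reads were trimmed with Trimmomatic and aligned to the SacCer3 genome with Bowtie2 in sensitive local mode. The counting tool, its annotation and its strand setting are not given in the sources used here. The values deposited by the authors are counts per feature divided by a size factor per library from DESeq2, treated here as a signal. The values divided by the step of their library came out whole in 100.0% of cases, with a tolerance of 0.01, and whole reads were recovered from these steps for the count tests, of which edgeR called 2021 features higher and 1970 lower. The deposited comparison columns hold the authors' fold changes and p-values and were not used.

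Values were transformed to log2(normalised count + 1), so that fold changes of low features are understated, and fitted with limma 3.58.1 (trended variance, R 4.3.3) over all 9 libraries, with the contrast of heat shock minus control. Features with a mean of at least 10 were tested, two-sided, with Benjamini-Hochberg adjustment over all 6847 and a threshold of 0.05. The culture number pairs the samples, since, according to the study's supplementary notes, each of 3 cultures, numbered as in the labels, gave a sample of every group. Deviations from the group means of same-numbered heat shock and control libraries correlated at 0.286, 0.0419 and 0.0534. For differently numbered libraries the correlations ran from −0.177 to 0.144, so that the pairing rests on the notes and not on these values. The alternatives were pseudocounts of 0.1 and 5, no filter or a mean of 50, other scalings, the culture as a block, a fit of 6 libraries, edgeR 4.0.16 and DESeq2 1.42.0 on recovered reads, a 2-fold minimum and leaving out each library. Read floors and intervals cover counting error only.

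Gene classes, positions and sequences came from RefSeq on R64, and 61 tRNA genes were matched where amino acid, chromosome and anticodon fitted 1 entry only. The 52 gene lists held 1682 genes, 26 of them in more than 1 list. Genes were named where they were among the 12 highest or lowest protein-coding genes with a mean of at least 100, a passed threshold and groups that did not overlap, among the 3 highest or lowest of a list or class, or members of the chaperone, regulator and marker lists. A few others are given as examples of members that did not pass. Lists and rules were chosen with earlier results of these data known. Errors are standard errors of the log2 fold change after ±, unless SD is stated.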

Additional observations from a re-analysis of the deposited data

How the results depend on the processing

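No named gene that passed the threshold passed it in the opposite direction in any alternative that was run. The balance of higher and lower genes did turn round, with total count scaling for all features (1525 higher and 2402 lower, also with TMM scaling and a mean of at least 50), ribosome assembly factors (10 and 29) and histidine and aromatic genes (4 and 5), with protein-coding scaling for protein-coding genes (1815 and 1559), and without heat shock replicate 2 for heat shock proteins (18 and 10, also with DESeq2 and protein-coding scaling), as it did in at least 1 alternative for some smaller lists such as fermentation, ubiquitin conjugation and phosphate uptake. Of 7606 refits of 364 named genes under 21 settings, 7398 kept their side of the threshold, 87 passed it only in the alternative and 121 no longer passed it. A minimum change of 2-fold left 833 higher and 393 lower features, 302 higher and 392 lower protein-coding genes and 1 lower unlisted reading frame. A mean of at least 50 left 70 tRNA genes, all of them higher, and 190 higher unlisted reading frames, since fewer features were tested. Lower unlisted reading frames numbered 9 to 17 when 1 library was left out. Counts over all features were 1740 to 2255 higher and 1621 to 2112 lower when 1 library was left out. With the culture as a replicate block, 2056 features rose and 1896 fell, and 3862 of the 3945 calls were shared. In the fit of 6 libraries with this block, 2422 rose and 2259 fell, which moved the count by more than 1.5 times for the heat shock proteins, as given above, and for ribosome assembly factors, of which 33 fell. Of the 3945 calls, 3878 were shared with edgeR, 3933 with DESeq2, 3420 with total count scaling and 3431 without heat shock replicate 2, with 0 in the opposite direction.

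With 3 cultures per group, a permutation test of a single value cannot fall below 0.1. The control counts of most tRNA genes were too low for a fold change of a single gene to be read closely, and identical copies limit tRNA, 5S, CUP1 and Ty genes. The count of higher against lower features depends on the scaling. The chaperone genes rest on 3 heat-shocked libraries of which 1 stood apart, and the cause was not tested.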

Other observations

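Genes that lie downstream of heat shock protein genes were described after their values had been seen, so that they are a pattern to look at and not a test. On the same strand, 8 of 19 such genes rose and 1 fell, with a median log2 fold change of 0.30, whereas over all genes that follow another on the same strand 711 of 2853 rose and 901 fell, with a median of −0.04. ASI3 starts 265 bases past SIS1 and had a log2 fold change of 2.33. RTT105, 284 bases past SSA4, had 2604, 789 and 1991 normalised reads after heat shock, against 460.4, 369 and 347 in the control (2.04 ± 0.32). CIN2, 237 bases past HSP82, had 359, 193 and 256 normalised reads after heat shock, against 70, 66.9 and 66.3 in the control (1.93 ± 0.22). VPS55, 452 bases past SSC1, had 3449, 2673 and 4070.1 normalised reads after heat shock, against 1060.2, 1009 and 949.5 in the control (1.73 ± 0.16). These neighbours had larger log2 fold changes than the heat shock protein genes before them, of which SIS1, SSA4, HSP82 and SSC1 had 0.24, 0.24, 0.52 and 0.01, and ASI3 and RTT105 also shared their low value in heat shock replicate 2. The neighbour that fell, KRE28, 893 bases past HSP31, had 364, 285 and 422 normalised reads after heat shock, against 1184, 949 and 987 in the control (−1.55 ± 0.17). On the opposite strand, 9 of 20 downstream genes rose and 4 fell, with a median of 0.32, against 758 higher and 944 lower of 3053 over all such pairs. Reads that run past the end of a gene cannot be told apart from reads of the neighbour in these counts.

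Genes near chromosome ends and genes that overlap another on the opposite strand also leaned up. Within 20 kb of a chromosome end, 78 of 230 protein-coding genes rose and 46 fell, with a median of 0.23, and farther in, 1348 of 5682 rose and 1831 fell, with a median of −0.07. Of 109 genes that overlap a gene on the opposite strand, 43 rose and 25 fell. The level in the control did not give a steady trend, since 31.7% of the 1478 lowest genes rose and 20.7% fell, while 26.3% of the 1478 highest rose and 28.3% fell. RUF5-1 and RUF5-2, non-coding RNAs opposite to the CUP1 genes, rose with log2 fold changes of 2.00 and 1.96, and each was lowest in heat shock replicate 2.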
